A study of Homo sapiens with 8 samples.

Results

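The CCT chaperonin, also called TRiC, is a large ATP-driven folding chamber in the cytosol, built from 8 related subunits that each occupy a fixed place in stacked rings. Its best known clients are actin and tubulin, which cannot reach their native fold without it, and it also folds WD40-repeat proteins such as CDC20, which dividing cells need. Some subunits bind ATP tightly (the products of TCP1, CCT2, CCT4 and CCT5) and the others weakly (CCT3, CCT6A, CCT7 and CCT8). All 8 genes were taken by their symbols, by a rule that uses no measured value. The set was nevertheless chosen with earlier results of these data known. All 8 were among the 11218 genes that passed the filter on low counts, of 57820 genes listed.

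The libraries came from A549, an established human lung adenocarcinoma line, with 2 libraries in each of 4 groups. One experiment set cells with an MGA overexpression vector against cells with an empty vector (labelled Empty). MGA is a transcription factor that uses MAX, which MYC also needs, to bind DNA, and the series title presents it as a repressor of genes that MYC targets. The other experiment set cells given an siRNA against MYC (siMYC) against cells given a negative control siRNA (siNC). The sources used here do not give the vector's promoter, the siRNA sequences and doses, or the times of harvest, and nothing says that the 2 replicates of a group, A and B, came from separate cultures. The p-values therefore measure the spread between these libraries, which may be technical.

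Total expected counts ran from 820428 to 1176890 in the vector libraries and from 1398805 to 2129006 in the siRNA libraries, and the 8 subunits had between 160 and 1311 counts each in a library. The manipulated genes followed the labels: MGA stood at 102455 and 103732 CPM (counts per 1e6 counts, scaled by TMM size factors) in the MGA libraries against 121.6 and 81.5 CPM with empty vector, and MYC at 48.3 and 41.1 CPM with siMYC against 219 and 183 CPM with siNC. MGA took 9.54% and 9.68% of all counts in its libraries, and MYC itself was higher there, at 296 and 347 CPM against 234 and 241 CPM with empty vector (log2 change 0.43, with adjusted p = 0.025). The keratins KRT7, KRT8 and KRT18 and the enzymes AKR1B10 and ALDH1A1, known to be abundant in this line, were high in all 8 libraries, while the alveolar genes SFTPB, SFTPC and NKX2-1, the blood cell gene PTPRC and the endothelial gene PECAM1 were listed at 0 TPM (transcripts per 1e6 transcripts, corrected for length) in all 8. NAPSA, another alveolar gene, was detected in 7 libraries, and the sum of the 6 alveolar markers was 0.55 and 1.27 TPM with empty vector and 1.54 and 5.29 TPM with MGA. Summed TPM of the enzymes AKR1B10, ALDH1A1, AKR1C1 and ALDH3A1 was 4485.0 and 4521.5 with empty vector and 3267.7 and 3391.8 with MGA. It was 9163.6 and 9696.8 with siNC and 11778.4 and 12866.8 with siMYC. The part of these shifts in the results of either experiment was not tested. EPCAM, another epithelial marker, was listed at 0 in 3 libraries and reached 14.8 TPM.

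MYC-MAX and MGA-MAX pairs bind the E-box CACGTG, and MGA also carries a T-box domain, so DNA before annotated transcription starts is printed here for 5 subunits to show which of these letters occur. The windows are the 250 bases before each RefSeq start (GRCh38.p14), and the stretches shown are the parts that no annotated GENCODE 29 exon covers. Those of TCP1, CCT2 and CCT8 lie before the GENCODE gene, while those of CCT3 and CCT7 lie inside it, since GENCODE has transcripts that start further upstream. Capitals mark CACGCG, a variant E-box, on either strand. The files themselves were made on hg19, so these coordinates are not those of the deposited tables.
TCP1 (chr6:159789750-159789811, minus strand): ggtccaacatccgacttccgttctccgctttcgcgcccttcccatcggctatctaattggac
CCT2 (chr12:69585209-69585333, plus strand): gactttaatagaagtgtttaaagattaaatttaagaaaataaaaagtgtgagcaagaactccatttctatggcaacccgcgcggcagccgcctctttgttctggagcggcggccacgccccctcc
CCT3 (chr1:156338466-156338502, minus strand): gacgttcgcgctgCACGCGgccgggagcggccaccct
CCT7 (chr2:73234058-73234235, plus strand): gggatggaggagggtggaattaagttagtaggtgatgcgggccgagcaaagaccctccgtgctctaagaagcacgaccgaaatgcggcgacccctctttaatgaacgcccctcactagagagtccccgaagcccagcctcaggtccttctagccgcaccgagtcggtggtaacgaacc
CCT8 (chr21:29073798-29073898, minus strand): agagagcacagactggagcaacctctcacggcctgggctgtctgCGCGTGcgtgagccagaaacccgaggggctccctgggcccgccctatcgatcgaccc

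Windows were found for 7 of the 8 subunits, 9 windows in all, and none for CCT6A. Of the 9 windows, 4 lay wholly inside the GENCODE gene (CCT3, CCT5, CCT7 and the second one of CCT2), so that bases before the gene were searched for 4 subunits only, TCP1, CCT2, CCT4 and CCT8. The E-box CACGTG occurred in 0 of the 9 windows, and in 6.34% of all 35116 windows of that length. CACGCG occurred in CCT3 and CCT8, 197 and 206 bases before the start, and in 9.72% of all windows. The T-box motif AGGTGTGA occurred in 0 of the 9 windows and in 0.786% of windows. GCGGGAA, a motif of E2F factors, occurred in TCP1 63 bases before the start (5.52% of all windows), in a part that is not shown because an exon covers it. GAANNTTC, part of the heat shock element, occurred in TCP1 and in the second CCT2 window (5.78% of all windows). Both strands were searched and no match overlapped another. These are matches of letters in a short window. They show no binding, and the missing matches say nothing about sites elsewhere in these genes.

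Knockdown of MYC lowered the mRNA of every CCT subunit. All 8 fell past the threshold (edgeR quasi-likelihood test, Benjamini-Hochberg adjusted p under 0.05), where 20% of all genes tested fell, 19% rose and 39% passed in either direction. In all 8 the siMYC libraries lay below the siNC libraries without overlap, which held for 33.6% of all genes in this direction. The fitted levels with siMYC were 44.1% to 60.7% of those with siNC, the median log2 fold change of the 8 was -0.91, and that of all genes was 0.01. The plot of CPM by library shows the 8 subunits side by side in all 4 groups.

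**Figure D1:**
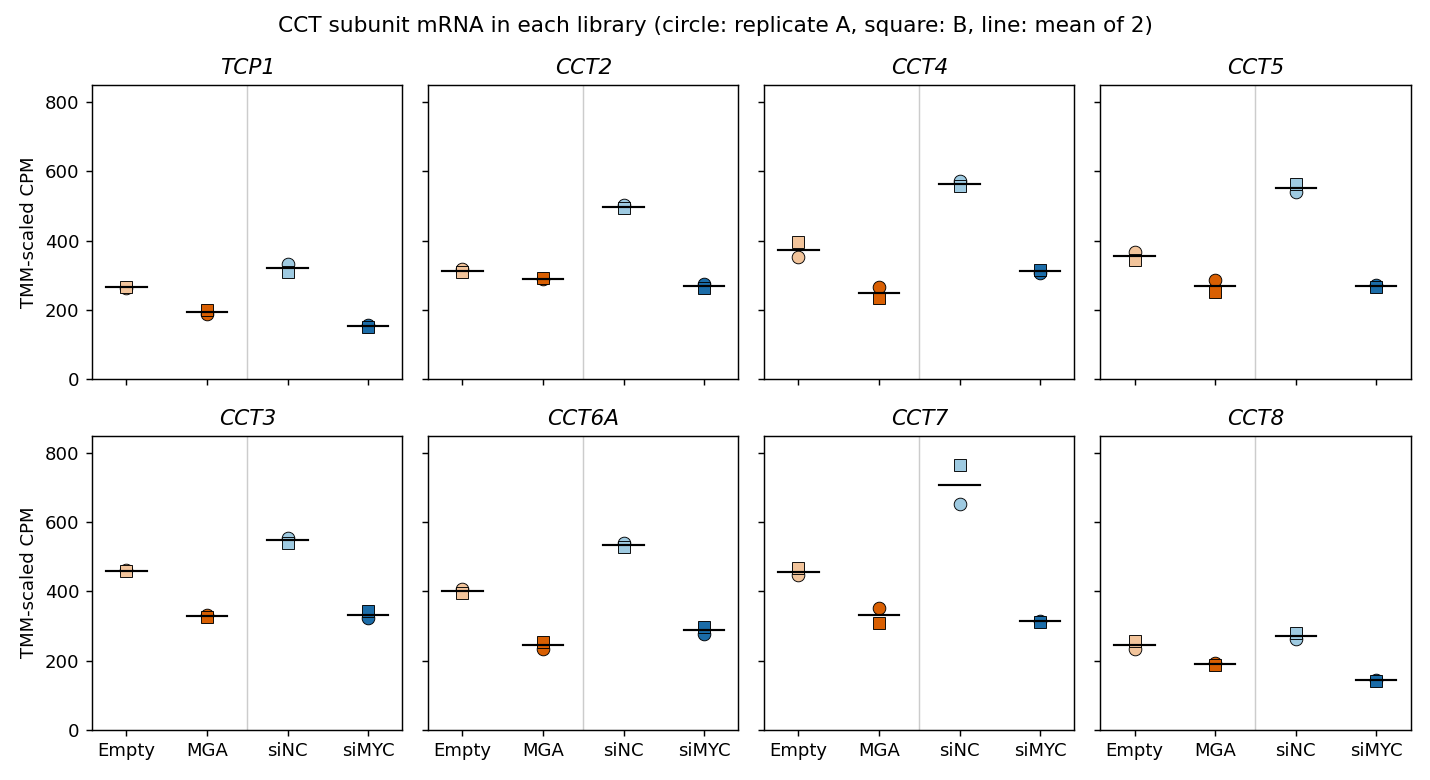
Normalised read counts (TMM-scaled CPM, vertical axis) of each CCT subunit in the 8 libraries, by group; circles are replicate A, squares replicate B, lines the mean of 2. All 8 subunits lay lower with siMYC than with siNC, and the MGA libraries lay below the empty vector libraries by smaller distances, the smallest in CCT2.

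Among the subunits that bind ATP tightly, TCP1, the subunit also named CCT-alpha, stood at 332 and 309.6 CPM with siNC and at 154 and 149.7 CPM with siMYC (log2 change -1.07, with SE 0.10 and adjusted p = 1.8e-09). CCT5, the epsilon subunit, stood at 539 and 563 CPM with siNC and at 270.2 and 265 CPM with siMYC (log2 change -1.04, with SE 0.09). Both subunits thus lay at roughly the same distance below their controls, and the replicates of each group stood close together. CCT2, the beta subunit, went from 502 and 493 CPM to 275 and 264 CPM (log2 change -0.88, with SE 0.09 and adjusted p = 6.6e-09). CCT4, the delta subunit, went from 572 and 557 CPM to 306 and 315 CPM (log2 change -0.86, with SE 0.09). The gap between groups was far wider than the gap between replicates in each of the 4 genes.

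Among the subunits that bind ATP weakly, CCT7, the eta subunit, had the lowest fold change of the 8. It stood at 653 and 765 CPM with siNC, the widest spread between replicates of any subunit in that group, and at 315 and 311 CPM with siMYC (log2 change -1.18, with SE 0.09 and adjusted p = 9.1e-11). CCT3, the gamma subunit, moved least, from 555 and 541 CPM to 323 and 342 CPM (log2 change -0.72, with SE 0.09 and adjusted p = 1.4e-07). CCT7 and CCT3 were thus the ends of the range, and the standard deviation of the 8 log2 fold changes was 0.14. CCT8, the theta subunit and one of the least abundant, went from 261 and 279 CPM to 143 and 141 CPM (log2 change -0.93, with SE 0.10). CCT6A, the zeta subunit, went from 539 and 528 CPM to 278 and 296 CPM (log2 change -0.89, with SE 0.09).

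Summed over the 8 subunits, CPM fell from 3995 ± 58.3 with siNC to 2075 ± 14.0 with siMYC (SD, n = 2), which is 51.9% of the control. Summed TPM fell less in proportion, from 3224 ± 39.7 with siNC to 1952 ± 37.6 with siMYC (SD, n = 2). In these bulk libraries, fewer cells with high expression and less mRNA in each cell cannot be told apart. Marker lists of other cell types moved with siMYC as well. The summed TPM of 5 fibroblast markers was 86.4 and 88.2 with siMYC and 7.85 and 20.2 with siNC. COL1A1, a collagen gene, was the only one of them above 3 TPM, and DCN, the decorin gene, was listed at 0 in all 8 libraries. The monocyte gene CD14 stood at 8.20 and 12.1 TPM with siMYC and at 3.02 and 3.95 TPM with siNC, while the blood cell genes PTPRC, CD3E and HBB were listed at 0 in all 8 libraries. The part of these shifts in the fall of the subunits was not tested.

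With MGA overexpression, 7 of the 8 subunits fell, where 4% of all genes tested fell, 4.96% rose and 8.96% passed in either direction. Scaling by library sizes alone turned the 449 lower and 556 higher genes behind these shares into 821 and 300, and upper-quartile scaling into 628 and 387. The fitted levels with MGA were 60.8% to 77.5% of those with empty vector in these 7 genes and 92.4% in CCT2, which did not pass. The median log2 fold change of the 8 was -0.46, and that of all genes was 0.01. In all 8 subunits the MGA libraries lay below the empty vector libraries without overlap, which held for 25% of all genes in this direction. Every subunit moved less than with siMYC in the fitted values, and 1.91% of all genes fell in both experiments.

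CCT6A had the lowest fold change. It stood at 406 and 396 CPM with empty vector and at 235 and 255 CPM with MGA (log2 change -0.72, with SE 0.10 and adjusted p = 3.2e-05). Pseudogenes of this subunit, CCT6P1 and CCT6P3, took up to 14.2% as many counts as CCT6A itself, in an MGA library, and with all its pseudogene counts added its log2 fold change was -0.60 (adjusted p = 0.00027). CCT6A thus fell with or without the pseudogene counts. For no other subunit did pseudogenes exceed 0.321% of its counts.

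CCT4 stood at 352 and 396 CPM with empty vector and at 266 and 234 CPM with MGA (log2 change -0.58, with SE 0.11 and adjusted p = 0.00074). CCT3 went from 462 and 458 CPM to 330.3 and 327 CPM (log2 change -0.48, with SE 0.10 and adjusted p = 0.0015). CCT7 went from 448 and 467 CPM to 351 and 309.6 CPM (log2 change -0.46, with SE 0.11 and adjusted p = 0.0051). In these 3 genes the lower empty vector library was still well above the higher MGA library. TCP1 went from 264 and 265 CPM to 188 and 199.8 CPM (log2 change -0.45, with SE 0.12 and adjusted p = 0.013). CCT5 went from 366 and 344 CPM to 287 and 250 CPM (log2 change -0.40, with SE 0.11 and adjusted p = 0.017). CCT8 went from 234 and 255 CPM to 192 and 187 CPM (log2 change -0.37, with SE 0.12 and adjusted p = 0.049). The last of these calls lay just inside the threshold.

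CCT2 was the exception. It stood at 317 and 308 CPM with empty vector and at 287 and 291 CPM with MGA, a log2 change of -0.11, with SE 0.10 and adjusted p = 0.57. Its libraries did not overlap between groups, yet the distance was smaller than in any other subunit. In log2 CPM, CCT2 lay 0.15 and 0.22 below the mean of the other 7 subunits with empty vector (-0.15 and -0.22) and above it with MGA (0.16 and 0.24). With siNC it lay at 0.09 and 0.04 relative to that mean and with siMYC at 0.17 and 0.10. CCT2 was singled out after its values were seen, and no test of this offset is given, since 2 libraries a side allow an exact permutation p no lower than 0.333.

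The calls with MGA leaned on the full set of libraries. Without empty vector replicate A 4 subunits passed, without empty vector replicate B 3, without MGA replicate A 5 and without MGA replicate B 3. CCT3, CCT4 and CCT6A passed in each of these 4 fits, and TCP1 and CCT8 in none. DESeq2 called 4 subunits with MGA, where it called 186 of 11218 genes lower. On log2(TPM + 1) limma called 0 of them, where it called 47 of 16269 genes lower. At an unadjusted p under 0.05 limma had 7 subunits, and the share of all genes at that cut was not counted. CCT2 turned to a log2 fold change of 0.07 in the limma fit, while the other 7 kept their direction.

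**Figure D2:**
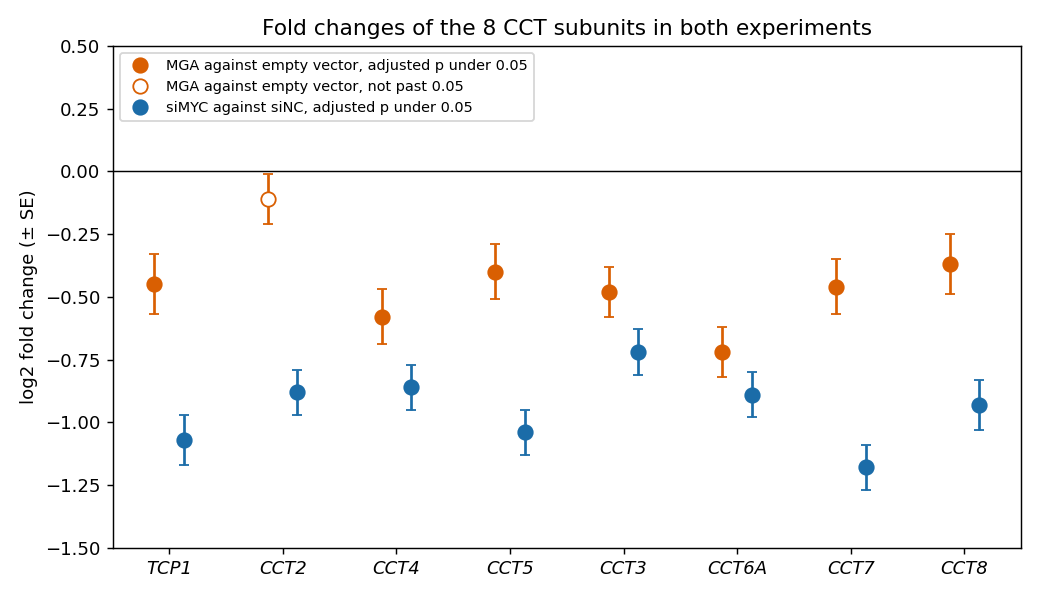
Log2 fold changes (vertical axis, with SE) of the 8 CCT subunits with MGA against empty vector and with siMYC against siNC, from a joint edgeR fit of 8 libraries; filled points passed an adjusted p of 0.05. All 16 points lie below 0, the open point is CCT2 with MGA (-0.11), and the siMYC points run from -1.18 to -0.72.

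The difference between the responses was tested as an interaction, the MGA response minus the siMYC response, so that a positive value means a smaller fall with MGA. It passed for 5 of the 8 subunits, all positive, where 10.3% of all genes passed in this direction, 8.22% in the other and 18.5% in either. Scaling by library sizes alone turned the 1154 higher and 922 lower genes behind these shares into 714 and 1357, and upper-quartile scaling into 804 and 1188, with 4 subunits passing under each. CCT2 had the largest difference, 0.77 on the log2 scale (SE 0.14, adjusted p = 0.00018), followed by CCT7 with 0.72 (SE 0.14 and adjusted p = 0.00056). CCT5 differed by 0.65 (SE 0.14), TCP1 by 0.62 (SE 0.15) and CCT8 by 0.56 (SE 0.16). For CCT4, CCT3 and CCT6A the differences were 0.29 (SE 0.14), 0.24 (SE 0.13) and 0.18 (SE 0.14) and did not pass, which does not show that their responses were alike. DESeq2 called 3 of the 8 differences and limma on log2(TPM + 1) called 0, with 5 at an unadjusted p under 0.05. The share of all genes at that unadjusted cut was not counted.

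The starting levels of the experiments also differed. The summed CPM of the 8 subunits was 2869 ± 28.1 with empty vector and 3995 ± 58.3 with siNC, and it was 2094 ± 58.2 with MGA and 2075 ± 14.0 with siMYC (SD, n = 2). The treated groups thus stood at nearly the same summed level, at 73.0% and 51.9% of their own controls. The experiments share no libraries and differ in treatment and depth, which cannot be told apart here.

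Levels of different subunits can be set beside each other in TPM, which corrects for transcript length. With siNC, CCT7 (603 ± 65.4 TPM, SD, n = 2) and CCT5 (574 ± 5.10 TPM) were the most abundant and did not differ beyond their spread. CCT2 (440 ± 67.8 TPM), CCT3 (426 ± 27.7 TPM) and CCT4 (405 ± 1.34 TPM) followed, with means that also lay within the spread of CCT2. That spread was in TPM only: CCT2 stood at 487.8 and 391.9 TPM but at 501.5 and 493.3 CPM in the same siNC libraries. CCT6A stood at 335 ± 2.63 TPM, and TCP1 (223 ± 21.4 TPM) and CCT8 (219 ± 5.42 TPM) were lowest, again within their spread. The order was much the same in the other groups: CCT5 and CCT7 held the first places by mean TPM in all 4 groups, CCT4 and CCT6A the fifth and sixth, and TCP1 and CCT8 the last ones.

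In each library the most abundant subunit had between 1.97 and 3.12 times the TPM of the least abundant. If all subunits had equal mRNA, each would make up 12.5% of the summed TPM. TCP1 and CCT8 made up 6.41% to 8.74% of it in every library, and CCT5 16.4% to 18.4%. CCT2 made up 11.6% and 11.7% with empty vector and 14.2% and 16.8% with MGA, without overlap, and 15% and 12.3% with siNC against 13.5% and 15.5% with siMYC, with overlap. CCT6A made up 11.5% and 10.5% with empty vector and 9.46% and 9.22% with MGA. With its pseudogenes added these became 11.7% ± 0.656 and 11.1% ± 0.511 (SD, n = 2).

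**Figure D3:**
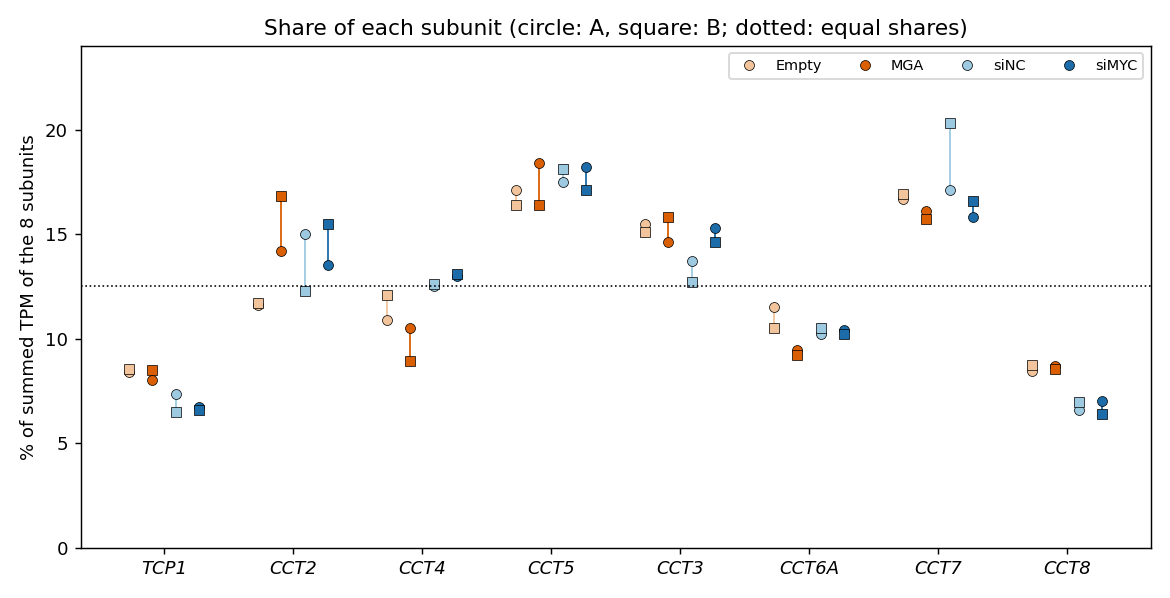
Share of each CCT subunit in the summed TPM of the 8 subunits (vertical axis, percent) in each library, by group; circles are replicate A, squares replicate B, and the dotted line marks 12.5%. TCP1 and CCT8 lie below 9% in every library, and CCT2 lies higher with MGA (14.2% and 16.8%) than with empty vector (11.6% and 11.7%).

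Among the helpers of the chaperonin, prefoldin hands unfolded actin and tubulin to the chaperonin. Of its 6 subunit genes 3 fell with siMYC and 0 passed with MGA, with median log2 fold changes of -0.43 and -0.03. VBP1, a prefoldin subunit, went from 85.0 and 92.7 CPM with siNC to 31.7 and 32.5 CPM with siMYC (log2 change -1.47, with SE 0.17 and adjusted p = 6.9e-08). PFDN6 and PFDN2 fell by 0.78 and 0.55 on the log2 scale. The VBP1 fold change was lower than that of any CCT subunit, a difference that was not tested, while PFDN1, PFDN4 and PFDN5 did not pass.

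Of 4 tested phosducin-like and related cochaperones, which bind the chaperonin and modulate it, 2 fell with siMYC and 0 passed with MGA. With siMYC, PDCD5 fell by 0.73 and TXNDC9 by 0.68 on the log2 scale. The median log2 fold changes of the 4 were -0.50 with siMYC and -0.32 with MGA. PDCL2 was not tested for lack of counts. Of 8 genes of the R2TP and prefoldin-like complex, another assembly chaperone, 3 fell with siMYC and 0 passed with MGA. RUVBL1 and RUVBL2, its ATPases, fell by 1.43 and 0.85 and RPAP3 by 0.61 on the log2 scale with siMYC. The median log2 fold changes of the 8 were -0.15 with siMYC and -0.34 with MGA. Missing the threshold with MGA thus does not show that the helper genes were unchanged. Across these 3 helper lists, 8 of 18 tested genes thus fell with siMYC in edgeR, where 20% of all genes fell, 4 in DESeq2 and 3 in limma on log2(TPM + 1). With MGA 0 of the 18 passed in any of these tools, where 4% of all genes fell in edgeR. At an unadjusted p under 0.05 in edgeR, the counts with MGA were 0 for prefoldin, 1 for the phosducin-like genes and 3 for R2TP. Of those 3 R2TP genes, 2 were lower with MGA, and PDRG1 was higher (log2 change 0.68).

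Of 16 actin, actin-related and tubulin genes, 7 fell and 3 rose with siMYC, where 20% of all genes fell and 19% rose. With MGA 5 of the 16 fell and 1 rose, where 4% of all genes fell and 4.96% rose. DESeq2 called 5 of them lower in each comparison, and limma on log2(TPM + 1) called 4 lower with siMYC and 2 with MGA. TUBA1B, an alpha-tubulin, fell in both (log2 fold changes -0.80 with siMYC and -0.64 with MGA), and so did the beta-tubulin TUBB (-0.40 and -0.81). ACTG1, gamma-actin, rose with siMYC (0.26) and fell with MGA (-0.54). The ends of the list with siMYC were ACTR2, an actin-related gene that fell (-1.47), and the alpha-tubulin TUBA1A, which rose (1.21). Neither passed with MGA (0.01 and 0.25). Actin and tubulin genes have near-identical copies that can share reads, so these values are uncertain. Of 15 other clients, 6 fell and 2 rose with siMYC, and 2 fell with MGA, beside the same shares of all genes. DESeq2 called 3 lower with siMYC and 2 with MGA, and limma on log2(TPM + 1) 1 and 0, with 2 lower at an unadjusted p under 0.05 with MGA. Both that fell with MGA were mitotic genes, the anaphase activator CDC20 (log2 fold change -0.71 with MGA and -1.12 with siMYC) and the kinase PLK1 (-0.73 and -0.93).

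Of 6 cofactors that take tubulin on from the chaperonin, 2 fell with siMYC, TBCE (log2 fold change -0.66) and TBCD (-0.36), where 20% of all genes fell. With MGA 1 of the 6 fell, the small GTPase ARL2 (-0.76), where 4% of all genes fell. These calls were lost in the other tools: DESeq2 and limma on TPM called 0 of the 6 in either comparison, and at an unadjusted p under 0.05 DESeq2 had 0 with siMYC and 1 with MGA, and limma on log2(TPM + 1) 1 and 2. Among other chaperonins, the mitochondrial pair HSPD1 and HSPE1 fell in both experiments, with log2 fold changes of -1.53 and -1.08 with siMYC and -1.11 and -1.46 with MGA. The remaining 2 tested genes of that list, MKKS and BBS10, did not pass in either. CCT6B and CCT8L2, the paralogs of CCT6A and CCT8 that are known from testis, had too few counts to be tested.

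HSF1 is the factor that induces cytosolic chaperones after heat. In a list of HSF1 and 13 cytosolic chaperones and cochaperones, not all of them heat-induced, 11 of 14 fell and 1 rose with siMYC. Of all genes 20% fell with siMYC. With MGA 4 of the 14 fell, where 4% of all genes did. Among the 11, the siNC and siMYC libraries of HSPA1A, HSPA1B and DNAJA1 overlapped. DESeq2 called 7 lower with siMYC and 4 with MGA, and limma on log2(TPM + 1) called 4 and 1. HSP90AB1, HSPA8, STIP1 and HSP90AA1 were those that fell with MGA (log2 fold changes -0.59, -0.82, -0.70 and -0.51). HSPB1, a small heat shock protein, was the gene that rose with siMYC (0.76). The list medians were -0.59 with siMYC and -0.20 with MGA, beside -0.91 and -0.46 for the CCT subunits.

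Outside the members, the genes whose profile over the 8 libraries was nearest to the mean profile of the CCT subunits were sought among 6519 genes with an average log2 CPM of at least 5. Likeness was the root mean square difference in log2 CPM, each gene taken relative to its own mean. The nearest were RPL3 (0.08) and RPL7 (0.09), proteins of the large ribosomal subunit, then FKBP4 (0.10), an HSP90 cochaperone, and LTV1 and RRP1B (both 0.10), which act in ribosome assembly. The same measure for the subunits themselves, which are part of that mean, ran from 0.08 for CCT5 to 0.17 for CCT8. RPL3 fell by 0.75 on the log2 scale with siMYC and by 0.36 with MGA, and FKBP4 by 0.94 and 0.47. RPL7 also passed in both. LTV1 (log2 change -0.54, with adjusted p = 0.19 in edgeR) and RRP1B (-0.34, with adjusted p = 0.25) did not pass with MGA. Ribosomal protein genes such as RPL3 and RPL7 have near-identical copies that can share reads, so their values are uncertain.

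In GENCODE 29, 5 of the 8 subunit genes start within 1000 bases of a protein-coding gene that runs the other way, against 13% of 19940 protein-coding genes. These neighbours, looked up after the values of the subunits were known, are MRPL18 beside TCP1, COMMD1 beside CCT4, FAM173B beside CCT5, PSPH beside CCT6A and PRADC1 beside CCT7. With siMYC, MRPL18, a mitochondrial ribosomal protein, had a mean of 65.4 ± 1.54 CPM in siNC and 41.3 ± 0.585 CPM in siMYC libraries (SD, n = 2, log2 change -0.66, with adjusted p = 0.0023). PSPH, the last enzyme of serine synthesis, went from 42.9 ± 1.12 to 25.8 ± 1.82 CPM (log2 change -0.72, with adjusted p = 0.0039). The other 3 did not pass, where 20% of all genes fell with siMYC. With MGA 0 of the 5 passed in edgeR, also at an unadjusted p under 0.05. The log2 changes were -0.31 for MRPL18, -0.59 for PSPH, -0.50 for FAM173B, 0.38 for COMMD1 and 1.62 for PRADC1. PRADC1 had means of only 1.78 CPM with empty vector and 5.66 CPM with MGA. Limma on log2(TPM + 1) called 0 with MGA, with 2 at an unadjusted p under 0.05, 1 of them lower. DESeq2 called 0 of the 5 with siMYC, with 1 at an unadjusted p under 0.05, and limma on log2(TPM + 1) called 0, with 0 at an unadjusted p. The calls of MRPL18 and PSPH thus rest on edgeR alone. COMMD1 overlaps CCT4 on the other strand, as ACAT2 does TCP1 and TSACC does CCT3. Antisense genes also overlap CCT4 and CCT5, and the strand setting of the counting is not stated. All 5 neighbours that start beside a subunit stood at 66.5 CPM or less in every library.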

How the data were processed

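RNA sequencing of poly(A)-selected RNA from 8 A549 libraries was analysed. Per the submitters' processing notes, STAR and RSEM were used with build hg19. The sources used here give no versions, annotation or strand setting. Per the file headers, the authors deposited expected counts (RSEM's estimates, which divide shared reads among genes) and TPM (corrected for length) per gene, with effective lengths.

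Expected counts were rounded, filtered (filterByExpr, minimum count 10, minimum total 15) and TMM-scaled. All 8 libraries entered 1 edgeR 4.0.16 fit (R 4.3.3) with 4 groups and two-sided quasi-likelihood F tests, adjusted by Benjamini-Hochberg over 11218 genes. The SE is the absolute log2 fold change divided by the square root of F. Shares used the deposited TPM, without a test. Replicate counts differed by more than sampling noise (chi-square per degree of freedom 1.14 to 1.79). The script was tested on simulated data. Limma 3.58.1 and DESeq2 1.42.0 served as alternatives, beside other scalings, filters and left-out libraries. Counts at an unadjusted p under 0.05 were made for the subunits, lists and neighbours only, not for all genes. Named genes were the 8 subunits, MGA, MYC, up to 4 called genes per list and comparison (smallest adjusted p first) and the 5 nearest profiles. Also named were markers and, added later, neighbours, overlapping genes and other members of the lists. The members and lists were chosen with earlier results of these data known. Coordinates of promoters and neighbours come from GRCh38 tables, not from the hg19 files.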

Additional observations from a re-analysis of the deposited data

Results flagged for a closer look

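The response to MGA and the response to siMYC differed in the interaction test for 5 subunits. The difference, MGA response minus siMYC response on the log2 scale, was 0.62 for TCP1 (adjusted p = 0.0047 in edgeR), 0.77 for CCT2 (adjusted p = 0.00018), 0.65 for CCT5 (adjusted p = 0.0015), 0.72 for CCT7 (adjusted p = 0.00056) and 0.56 for CCT8 (adjusted p = 0.013). All of these fell further with siMYC. Groups of 2 libraries were too small to be searched for single outlying samples.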

How the results depend on the processing

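With siMYC, 7 or 8 subunits passed in all 20 alternatives, always downward. CCT2 missed with limma on log2(TPM + 0.1) and without a filter on low TPM. The falls were smaller in the fits on TPM, where the members' median with siMYC was -0.74, against -0.91 in the main fit. With MGA it was -0.36 or -0.37 in those fits, against -0.46. With MGA the count of 7 became 4 with DESeq2 and 0 in each of the 3 fits on TPM (pseudocounts 1 and 0.1, and 1 without a filter), and ran from 3 to 7 when 1 library was left out. The CCT2 log2 fold change with MGA turned from -0.11 to 0.07 in these 3 fits on TPM, and the other 7 subunits kept their direction in all alternatives. For the interaction the count of 5 became 3 with DESeq2 and 0 in the fits on TPM, and ran from 4 to 5 when 1 library was left out. The cause was not tested. A fit of a single experiment gives no interaction, so that alternative was not run for it. The A minus B differences of all genes correlated at -0.02 between Empty and MGA and at 0.13 between siNC and siMYC. This does not settle whether the replicate letters pair libraries. HSPA1A, HSPA1B and HSPA8 were higher in replicate A than in B in both siRNA groups. So were HSPH1, DNAJA1, DNAJB1, BAG3, HSP90AA1 and HSP90AB1 of the same list, while HSF1, HSPB1, HSPA4, STIP1 and AHSA1 were not. HSPA8 stood at 1991 and 1528.4 CPM with siNC and at 1057.5 and 825.4 CPM with siMYC. With a replicate block the counts were again 7, 8 and 5. Over all genes, DESeq2 called 343, 1967 and 812 and limma on log2(TPM + 1) 71, 947 and 196, against 1005, 4370 and 2076. Leaving out a vector library lowered the MGA count to between 402 and 474. Library sizes alone moved the median of all genes with MGA to -0.12 and the members' median to -0.59. Summed TPM of the subunits moved by less than its SD in each alternative, and 7 of 96 shares moved by more, all with pseudogenes added. Depth, 820428 to 2129006 counts a library, limits the detection of small changes.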

Other observations

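Several genes around the chaperonin also differed between the experiments in the interaction test (MGA response minus siMYC response, log2). ACTR2, a subunit of the actin-nucleating Arp2/3 complex, differed by 1.47 (SE 0.14, adjusted p = 1.2e-08 in edgeR) and did not pass with MGA. VBP1 differed by 1.36 (SE 0.27, adjusted p = 0.00057 in edgeR) and HSPH1, a nucleotide exchange factor of HSP70, by 1.24 (SE 0.19, adjusted p = 2.9e-05 in edgeR). HSPB1 and ACTG1 differed the other way, by -1.02 (SE 0.15) and -0.81 (SE 0.10). HSPE1, the mitochondrial co-chaperonin, differed by -0.37 (SE 0.19, adjusted p = 0.19 in edgeR), which did not pass.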
